A study of Mus musculus with 5 samples.

Results

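Iron reaches cells bound to transferrin and leaves them through a single known exporter, and heme and hemoglobin that escape from red cells are bound in plasma by proteins made in the liver. The 10 genes described here encode the main parts of that traffic: the carrier transferrin (Trf), its receptors (Tfrc, Tfr2), the membrane transporters DMT1 (Slc11a2) and ferroportin (Slc40a1), the copper ferroxidase ceruloplasmin (Cp), the ferritin heavy chain (Fth1), the scavengers haptoglobin (Hp) and hemopexin (Hpx), and heme oxygenase 1 (Hmox1). They were listed by name, and every non-control probe that carried one of those names, or whose accession has one as its current symbol, was taken. That gave 12 probes for 10 genes, out of 41174 probes and 28786 genes in all. Hpx and Tfr2 stand under the older names Hpxn and Trfr2 in the files and were matched by accession. Slc11a2 had 3 probes, the other genes 1 each. All 10 genes passed the filter on dim probes, Tfr2 and Hp with 1 group not well above background.

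RNA from 5 mouse cell samples was measured on 5 one-colour Agilent arrays. The hepatic progenitor cells (HPC) are lines from fetal liver at E13.5: HB1 from C57BL6J mice, also labelled C57BL/6, and HNG2 from STOCK Tg(Nanog-GFP, Puro)1 Yam mice. The neural progenitor cells (NPC) are the line NSBAg2, made from the embryonic stem cell line BAg73C2, in which beta-geo is knocked into Afp. The induced hepatic progenitor cells (iHPC) were made from NSBAg2 with pMXs retroviruses, which carry no drug-selection marker, for 9 transcription factors (9F) or 10 (10F). They were put in G418 at 3 weeks after infection and harvested 1 week later. NPC and both iHPC samples therefore share the Afp allele, and the iHPC were selected by a drug resistance driven from Afp, while the labels give neither for the HPC lines. Each sample is 1 array of 1 line or population, the HPC pair are lines of different strains, the iHPC pair received different numbers of factors, and NPC has no replicate. Adjusted p-values therefore rest on how far HB1 lies from HNG2 and 9F from 10F. Further NPC and embryonic stem cell data that the series' design text mentions were not used here.

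Levels are given as log2 of the background-corrected intensity minus the 75th percentile of the same array, so that 0 is that percentile and each step of 1 is a doubling. A level belongs to its own probe and was not set against that of another probe. Probe positions are those of the files, on mouse assembly mm7, and the exon or untranslated region under each was not analysed here. The arrays had a 75th percentile of 590.3 to 1074 intensity units, 58.9% to 65.6% of spots well above background and 0 saturated spots. All 7 hepatic markers (Alb, Afp, Ttr, Krt8, Krt18, Hnf4a, Dlk1) were well above background on each HPC and iHPC array, against 2 of 7 on the NPC array. Of 6 neural markers, 5 were above background in NPC, 4 on each iHPC array, 2 in HB1 and 3 in HNG2. Each HPC array was scanned on a day of its own, and iHPC and NPC on the third day, so scan day and HPC cannot be told apart. iHPC 10F and NPC also shared a slide.

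In the liver, hepatocytes secrete transferrin, ceruloplasmin, haptoglobin and hemopexin, and they sense iron in plasma through transferrin and its receptors. Inside the cell, ferritin stores iron that is not in use, and heme oxygenase frees iron from heme. When iron is short, iron regulatory proteins protect Tfrc mRNA, which acts on its RNA level, and hold back ferritin translation. Control of translation is not seen in RNA levels.

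Against NPC, Trf and Hp were higher and Slc40a1 was lower in iHPC, the other 7 members not passing the test. A gene was called when its adjusted p was under 0.05 in a limma fit across 19308 genes with Benjamini-Hochberg adjustment. Thus 3 of 10 members were called between iHPC and NPC, 2 higher and 1 lower, where 5.65% of all genes were called, 2.8% higher and 2.85% lower. At an unadjusted p under 0.05 there were 7 members, and 4715 of all 19308 genes. The median difference of the 10 members was 1.43 and that of all genes 0.026. All 10 members had both iHPC arrays on 1 side of the NPC array, an order easily met with 2 arrays against 1. The share of all genes that did was not computed, so this count is not a result about the members.

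Against HPC, only Cp was called among the 10, higher in iHPC. There 5.43% of all genes were called, 3.55% higher and 1.88% lower in iHPC. At an unadjusted p under 0.05 there were 6 members, and 5328 of all 19308 genes. The median difference was 0.92 against 0.052 for all genes. Between HPC and NPC, Trf and Hp were called, both higher in HPC, where 15.7% of all genes were called, 6.68% higher and 8.98% lower. There 5 members and 7031 of all 19308 genes had an unadjusted p under 0.05, and the median difference was 0.59 against -0.026. Each pair of comparisons shares arrays, and both that involve NPC rest on the same single NPC array.

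**Figure D1:**
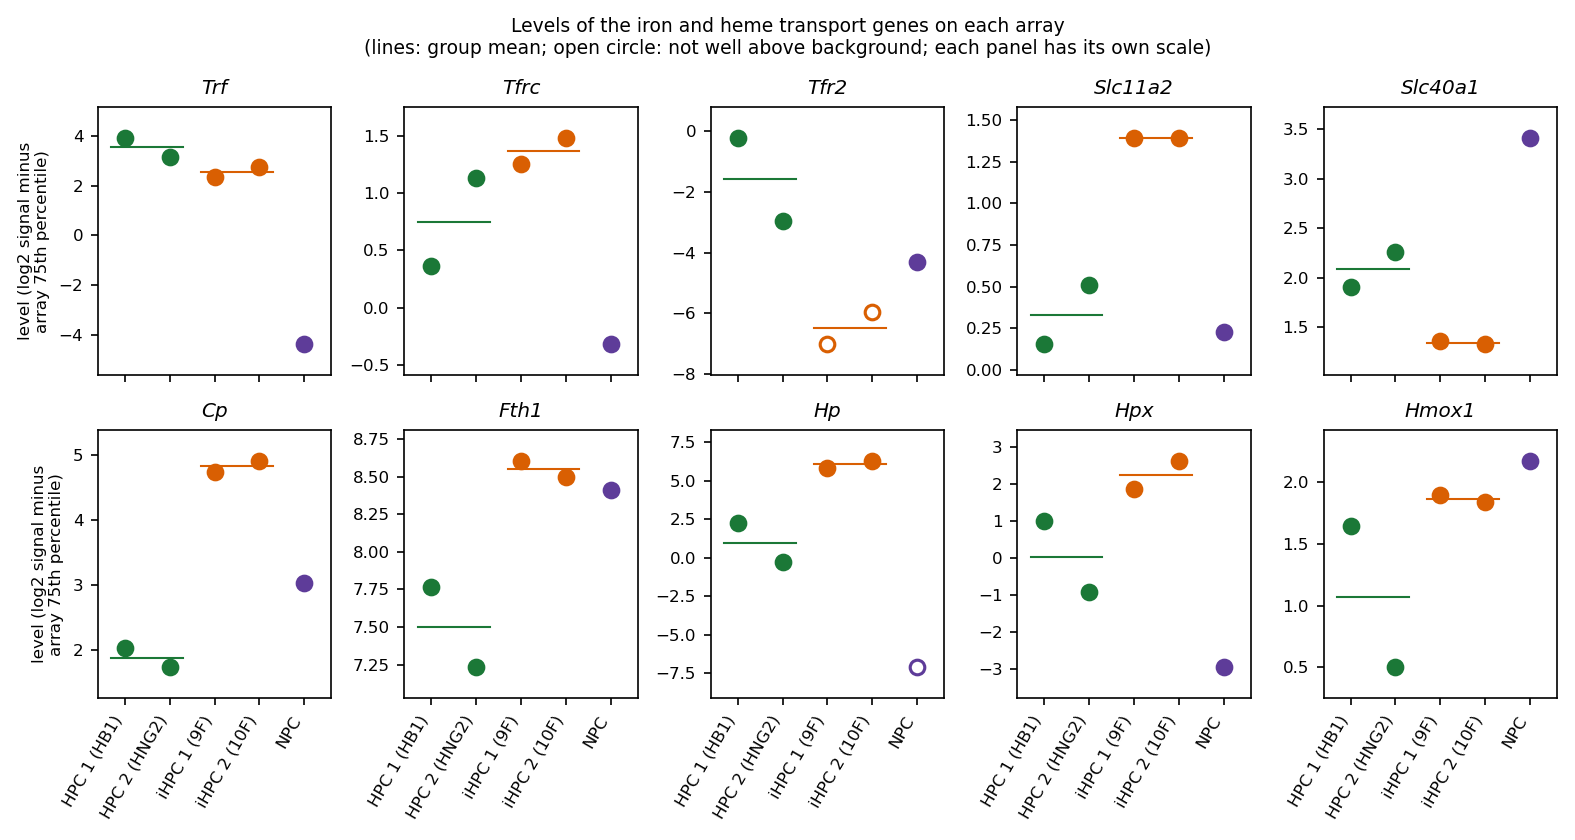
Level of each of the 10 genes on the 5 arrays, in log2 of intensity minus the 75th percentile of the array. Each point is 1 array, lines are group means, and open points were not well above background. Trf and Hp fall to -4.39 and -7.12 in NPC, Tfr2 is highest on the HPC arrays (-0.23 and -2.95), and Cp and Hp are highest on both iHPC arrays.

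Trf encodes transferrin, which carries ferric iron in plasma. Its probe spans chr9:102929342-102929957 on the minus strand, in 2 blocks. Its level was 3.92 in HB1, 3.16 in HNG2, 2.33 in 9F, 2.73 in 10F and -4.39 in NPC. All 4 hepatic arrays lay far above NPC, and both iHPC arrays lay below both HPC arrays. iHPC exceeded NPC by 6.92 ± 0.45 (SE), or 121-fold (adjusted p = 0.0285), and HPC exceeded NPC by 7.93 ± 0.45, or 244-fold (adjusted p = 0.0112). The gap of -1.01 ± 0.37 between iHPC and HPC, 2.01-fold, did not pass (adjusted p = 0.192). Without 9F or 10F no gene was called in any comparison, and the adjusted p of Trf in iHPC against NPC became 0.222 and 0.243. That of HPC against NPC became 0.0679 and 0.0739, and 0.0646 in a fit of those groups alone. The gap between iHPC and HPC was -0.63 without HB1 and -1.39 without HNG2. Here and below, fits without HB1 or HNG2 take their spread from the gap between 9F and 10F alone. They leave out the gap between the HPC lines, so a difference that passes in them is not tested against it. Oligodendrocytes also make transferrin, and 4 of 5 oligodendrocyte markers were above background on every array, with a summed level of 2.77 to 2.91 in HPC, 2.12 to 2.36 in iHPC and 0.45 in NPC. Of these, Mbp stood at 2.81, 2.59, 1.92, 1.67 and -1.14 on the arrays in the same order, while Mog was not above background on any. The part of those cells in the Trf result was not tested.

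Haptoglobin binds free hemoglobin so that it can be cleared, and its gene is induced in hepatocytes during inflammation. The probe lies at chr8:108175404-108175463 on the minus strand. The Hp level was 2.24 in HB1, -0.28 in HNG2, 5.84 in 9F and 6.28 in 10F, while in NPC, at -7.12, it was not well above background. Both iHPC arrays lay above both HPC arrays, and all 4 lay above NPC. For a group that is not well above background only a bound can be given, set by the lowest signal well above background on that array. Here and below, an adjusted p beside a bound tests the difference in levels, background values included, and not the bound itself. Relative to NPC, Hp was higher by at least 3218-fold in iHPC (adjusted p = 0.03) and by at least 95.3-fold in HPC (adjusted p = 0.0326). iHPC exceeded HPC by 5.08 ± 0.97, or 33.8-fold, which did not pass (adjusted p = 0.0794), the 2 HPC lines being 2.52 apart. The bounds hold only for the background subtraction of the deposited values. With the normexp background correction the differences from NPC were 9.32 in iHPC and 4.39 in HPC. In log2 the bounds are 11.7 and 6.57, so the normexp differences fall under them. Without HB1 or HNG2 the bound for HPC was 39.7-fold and 228.5-fold. Without HB1 or HNG2 the difference between iHPC and HPC was 6.34 and 3.82, in fits that leave out the 2.52 between the lines. With normexp and all arrays the difference between iHPC and HPC passed (adjusted p = 0.0442). The call in HPC against NPC was lost with normexp (adjusted p = 0.0511), in a fit of those groups alone (0.0906) and without 9F or 10F (0.0949 and 0.101). The call in iHPC against NPC was lost without 9F or 10F (0.222 and 0.243).

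Hemopexin binds free heme in plasma, and its probe lies at chr7:101648211-101648270 on the minus strand. Hpx had a level of 1.00 in HB1, -0.91 in HNG2, 1.87 in 9F, 2.62 in 10F and -2.94 in NPC. The groups did not overlap, with iHPC highest and NPC lowest. iHPC exceeded NPC by 5.19 ± 0.96, or 36.5-fold (adjusted p = 0.0761), HPC exceeded NPC by 2.99 ± 0.96 (adjusted p = 0.12), and iHPC exceeded HPC by 2.20 ± 0.78 (adjusted p = 0.188). None of these passed. The iHPC excess over NPC passed with median centring (adjusted p = 0.0445). It also passed with scan day as a block, in a fit of those groups alone and without HB1 or HNG2, each at 5.19. These last fits all take their spread from the gap between 9F and 10F alone, so they do not count separately. Without HB1 the HPC excess over NPC was 2.03 and the iHPC excess over HPC 3.16, and both passed (adjusted p = 0.0468 and 0.0242). Without HNG2 they were 3.94, which passed (0.0171), and 1.25, which did not (0.111).

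Ceruloplasmin, the copper protein that oxidises ferrous iron for loading onto transferrin, was the 1 member called between iHPC and HPC. Arrays of those groups did not overlap in any of the 10. The share of all genes without overlap was not computed, so that count is not a result about the members either. The Cp probe lies at chr3:19721093-19721152 on the plus strand. The Cp level was 2.04 in HB1, 1.74 in HNG2, 4.74 in 9F, 4.90 in 10F and 3.03 in NPC. NPC thus lay between the groups, above both HPC and below both iHPC arrays. iHPC exceeded HPC by 2.93 ± 0.22, or 7.62-fold (adjusted p = 0.0234), a call lost without 9F or 10F (adjusted p = 0.228 and 0.243). Against NPC, iHPC was 1.79 ± 0.27 higher, or 3.46-fold (adjusted p = 0.0566), and HPC was 1.14 below (difference -1.14 ± 0.27, adjusted p = 0.0741). Neither passed. The former did with normexp (adjusted p = 0.0301) and with a trend in eBayes (0.0289). It also did with scan day as a block, in a fit of those groups alone and without HB1 or HNG2. These last fits take their spread from the gap between 9F and 10F alone, so they do not count separately. The difference between HPC and NPC passed with normexp (adjusted p = 0.0382) and with a trend (0.0319). It also passed without HB1 (-1.28) or HNG2 (-0.99). Astrocytes and macrophages also make ceruloplasmin. Of 3 astrocyte markers only 1 was above background on each array, the summed level being -4.50 to -2.42 in HPC, -0.47 to -0.34 in iHPC and 1.39 in NPC. The brightest of them was Aqp4 in HB1 and Aldh1l1 on the other 4 arrays, while Gfap was not above background on any array. Of 8 macrophage markers, 2 to 3 were above background in HPC, 3 to 4 in iHPC and 1 in NPC, with a summed level of -1.77 to -1.51, 0.78 to 0.95 and -1.50. Csf1r and Ptprc were brighter on both iHPC arrays than elsewhere, and Adgre1, Cd163, C1qa and Vsig4 were not above background on any array. The part of such cells in the Cp and Hp levels was not tested.

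**Figure D2:**
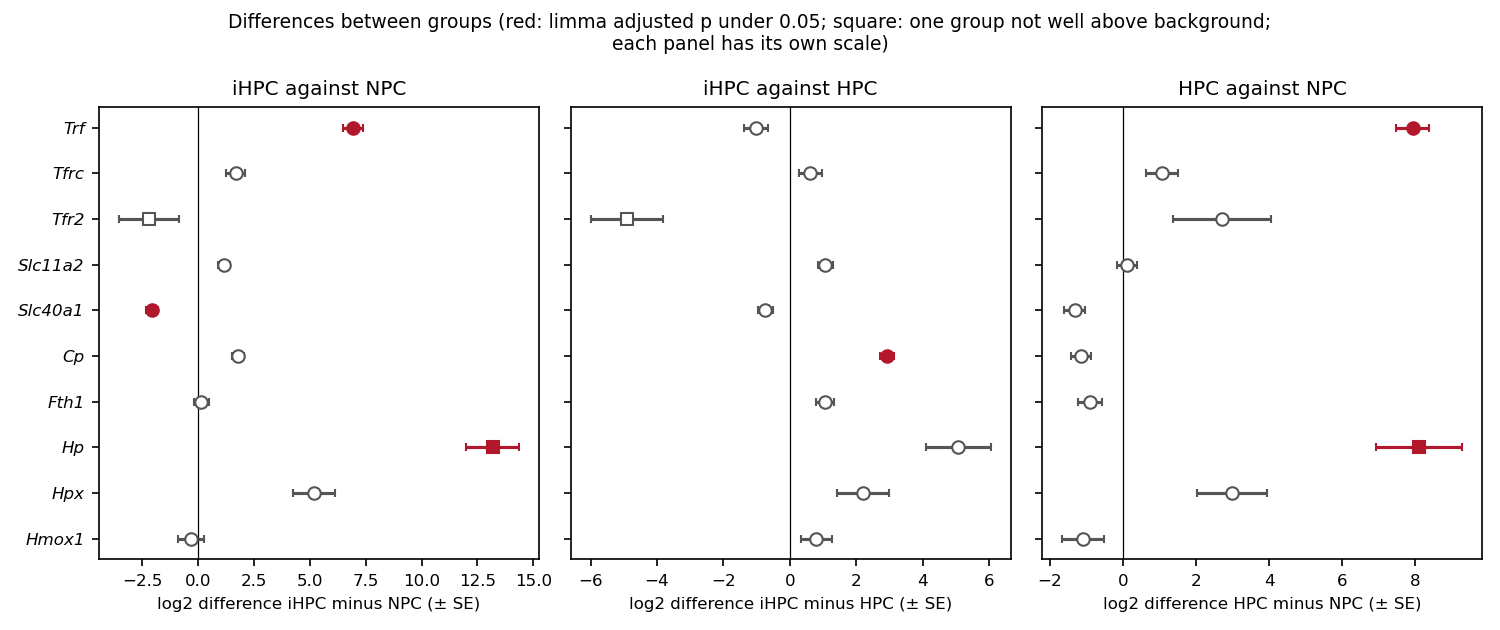
Difference between group means for the 10 genes in the 3 comparisons, in log2 units, with the standard error of the limma fit as bars. Filled points were called at an adjusted p under 0.05, and squares have 1 group not well above background, so that their value is not a measured fold. Trf at 6.92 and Hp are called higher and Slc40a1 at -2.06 lower in iHPC against NPC, and Cp at 2.93 is the one call in iHPC against HPC.

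The upstream sequences of the plasma protein genes are shown because Hpx and Cp had their highest levels in iHPC. RefSeq promoter windows of assembly GRCm38.p6, from 250 bases before to 50 after an annotated start, covered 5 of the 10 members (Tfrc, Tfr2, Hpx, Cp and Fth1) with 10 windows. Each was searched on both strands for TTNNGCAA (C/EBP), GTTAAT (HNF1), CAAAGTC (HNF4) and ACGTG (hypoxia response), which 10.8%, 7.1%, 4.44% and 19.6% of all 32851 windows hold. The Hpx window, chr7:105600067-105600366 on the minus strand, held a C/EBP match (TTGCTGAA, from position -200) and an HNF4 match (GACTTTG, from -136), both as the reverse complement of the motif. The second Cp window, chr3:19956999-19957298 on the plus strand, held a C/EBP match (TTTTGCAA, from -70). The first Cp window held an HNF1 match (ATTAAC, from -194). Fth1 held an HNF4 match in its first window (CAAAGTC, from -55) and C/EBP matches in its second (TTGGGCAA, from -58, and TTGCAGAA, from -129), so such matches are not particular to Hpx and Cp. Capitals mark the matches, which do not overlap each other, and positions count from the annotated start, so that -1 is the last base before it.
Hpx: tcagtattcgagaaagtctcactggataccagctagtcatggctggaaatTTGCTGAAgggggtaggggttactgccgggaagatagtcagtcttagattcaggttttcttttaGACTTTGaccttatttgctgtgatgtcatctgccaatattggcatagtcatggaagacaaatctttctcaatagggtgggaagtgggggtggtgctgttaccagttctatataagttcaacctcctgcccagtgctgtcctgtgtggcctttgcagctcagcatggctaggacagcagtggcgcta
Cp: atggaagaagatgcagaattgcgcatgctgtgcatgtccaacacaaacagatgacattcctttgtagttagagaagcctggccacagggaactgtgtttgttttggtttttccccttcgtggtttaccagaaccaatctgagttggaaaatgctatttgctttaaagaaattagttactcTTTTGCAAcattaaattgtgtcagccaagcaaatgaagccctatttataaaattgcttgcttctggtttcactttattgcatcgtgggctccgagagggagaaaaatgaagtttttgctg
These matches describe the letters alone, and no binding was measured.

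Tfrc encodes the main transferrin receptor, which nearly all dividing cells use to take up iron, with its probe at chr16:32306693-32306752 on the plus strand. Its level was 0.37 in HB1, 1.13 in HNG2, 1.26 in 9F, 1.48 in 10F and -0.32 in NPC. NPC was lowest, and the HNG2 value lay close to both iHPC arrays. The probe was spotted 10 times on each array, with an SD over those repeat spots of 0.0408 to 0.0624, which is technical only, and the HPC lines differed by 0.77. iHPC exceeded NPC by 1.69 ± 0.43, or 3.23-fold (adjusted p = 0.129), HPC exceeded NPC by 1.07 ± 0.43 (adjusted p = 0.171), and iHPC exceeded HPC by 0.62 ± 0.35 (adjusted p = 0.334). None passed. The first did with scan day as a block, in a fit of those groups alone and without HB1 or HNG2, each at 1.69. All of these fits take their spread from the gap between 9F and 10F alone, so they do not count separately. Without HB1 HPC exceeded NPC by 1.46 (adjusted p = 0.0204) and iHPC exceeded HPC by 0.24 (0.356). Without HNG2 these were 0.69 (0.0844) and 1.01 (0.0423). Erythroid precursors carry much of this receptor in fetal liver, and 4 of 8 erythroid markers were above background on every array, with a summed level of -1.25 to -0.64 in HPC, -0.11 to 0.028 in iHPC and 0.70 in NPC. Epor was the brightest of them on every array, at -1.50, -1.85, -0.63, -0.34 and 0.31 on HB1, HNG2, 9F, 10F and NPC. Hba-a1 stood at -3.05, -4.18, -3.18, -3.70 and -3.06 in the same order. Gata1, Alas2 and Hbb-bh1 were among the markers not above background on any array.

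The first RefSeq window of Tfrc, chr16:32608646-32608945 on the plus strand of GRCm38.p6, is shown because ACGTG, the core that hypoxia-inducible factors bind, lies across the annotated start, from position -2.
Tfrc: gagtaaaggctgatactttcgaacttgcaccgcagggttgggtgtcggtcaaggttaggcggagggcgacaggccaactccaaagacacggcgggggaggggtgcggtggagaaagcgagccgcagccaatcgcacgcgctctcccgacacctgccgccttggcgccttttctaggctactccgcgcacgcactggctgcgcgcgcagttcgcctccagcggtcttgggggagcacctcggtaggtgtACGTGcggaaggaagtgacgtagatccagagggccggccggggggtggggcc
The capitals mark that match. Both windows of this gene overlap and hold the same 5 letters, as does a share of 19.6% of all windows. Tfr2 held ACGTG in 2 of its 3 windows and CAAAGTC in 1.

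Tfr2, the second transferrin receptor, acts in hepatocytes as a sensor of iron in plasma and takes part in hepcidin control, and its probe lies at chr5:136505632-136505691 on the plus strand. It stood at -0.23 in HB1, -2.95 in HNG2, -7.02 in 9F, -5.97 in 10F and -4.31 in NPC, and on neither iHPC array was it well above background. The HPC lines lay highest but 2.72 apart, a 6.59-fold gap. Tfr2 was at least 14.3-fold lower in iHPC than in HPC and at least 2.17-fold lower than in NPC, and neither difference passed (adjusted p = 0.0998 and 0.417). HPC exceeded NPC by 2.72 ± 1.34 (adjusted p = 0.237), a difference of 1.36 without HB1 and of 4.08 without HNG2. With normexp the differences were -1.99 in iHPC against HPC and -0.44 in iHPC against NPC. These are smaller in size than the bounds, which are 3.84 and 1.12 in log2. The bound between iHPC and HPC also rests on which line is used: at least 5.58-fold without HB1 and at least 36.8-fold without HNG2. The fits without HB1 or HNG2 leave out the gap between these lines, and their test of the difference in levels does not cover the bounds. In iHPC the carrier, Trf, was thus called above NPC, while this sensing receptor was not well above background.

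Ferroportin, the product of Slc40a1, exports iron from cells and is the target of hepcidin, and the probe lies at chr1:46145061-46145120 on the minus strand. The Slc40a1 level was 1.91 in HB1, 2.26 in HNG2, 1.36 in 9F, 1.33 in 10F and 3.41 in NPC. NPC was highest and both iHPC arrays were lowest, without overlap. iHPC lay 2.06 below NPC (difference -2.06 ± 0.28, 4.18-fold; adjusted p = 0.0472). That call stood close to the threshold and was lost with arrays centred on their median (adjusted p = 0.0691), with no filter on dim probes (0.094) and without 9F or 10F (0.361 and 0.37). HPC lay below NPC by 1.33 (difference -1.33 ± 0.28, adjusted p = 0.0583) and iHPC below HPC by 0.74 (difference -0.74 ± 0.22, adjusted p = 0.151), neither passing. The former passed with quantile normalization (adjusted p = 0.0396), normexp (0.0263), a filter on all arrays (0.0465) and a trend in eBayes (0.0274). It did not with median centring (0.147), no filter on dim probes (0.122), every probe tested (0.0576) or probes averaged (0.0563), nor in a fit of those groups alone. Without HB1 or HNG2 the difference between HPC and NPC was -1.15 and -1.50, and that between iHPC and HPC -0.91 and -0.56. Fibroblast markers were also highest in NPC, with 6 of 6 above background and a summed level of 7.48, against 2 to 4 of 6 and -2.82 to 0.65 in HPC and 3 to 4 of 6 and -0.34 to -0.048 in iHPC. Their part in the Slc40a1 result was not tested.

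Slc11a2 encodes DMT1, which moves ferrous iron across the apical membrane and out of endosomes, and 1 of its 3 probes gave another order of the groups than the other two. The brightest, used for the gene, stood at 0.15 in HB1, 0.51 in HNG2, 1.39 in 9F, 1.39 in 10F and 0.23 in NPC. On it both iHPC arrays were highest: iHPC exceeded HPC by 1.06 ± 0.23 (adjusted p = 0.0927) and NPC by 1.17 ± 0.28 (adjusted p = 0.116). The first passed with normexp (adjusted p = 0.0483), and both passed without HB1 or HNG2. The second also passed with scan day as a block or in a fit of those groups alone. These fits, normexp aside, take their spread from the gap between 9F and 10F alone. For the second they give the same difference and do not count separately. HPC and NPC differed by 0.10 ± 0.28 (adjusted p = 0.814). A second probe, A_52_P196476, stood at -1.51, -0.94, -3.40, -3.12 and -3.27 in the same order of arrays. There both HPC arrays were highest. With every probe tested, that probe was 2.04 ± 0.36 higher in HPC than in NPC and passed (adjusted p = 0.0455 over 27940 probes), was 2.03 below HPC in iHPC without passing (difference -2.03, adjusted p = 0.0559), and differed by 0.0062 between iHPC and NPC (adjusted p = 0.996). The third, A_52_P254298, stood between -3.56 and -2.94 on all 5 arrays, with both iHPC arrays highest and, as on the brightest, the HPC mean next. Its differences did not pass, at 0.49 in iHPC against NPC (adjusted p = 0.358), 0.44 in iHPC against HPC (0.275) and 0.047 in HPC against NPC (0.913). Averaging the 3 probes turned the difference between iHPC and HPC to -0.18 (adjusted p = 0.614), so no single direction holds for the gene.

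**Figure D3:**
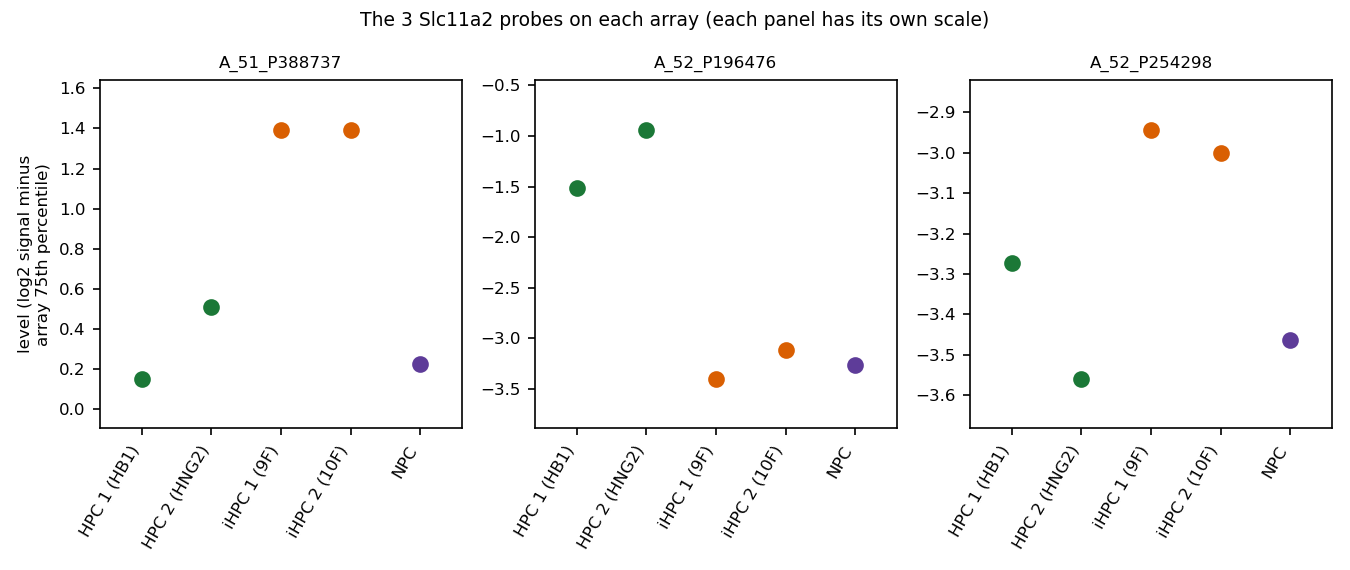
Level of the 3 Slc11a2 probes on the 5 arrays, in log2 of intensity minus the 75th percentile of the array, each panel with 1 probe and each point 1 array. The probe used for the gene is highest in iHPC at 1.39, whereas A_52_P196476 is highest in HPC at -1.51 and -0.94 and A_52_P254298 stays between -3.56 and -2.94.

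The Slc11a2 probes lie at chr15:100373147-100373206 (A_51_P388737, the brightest), chr15:100378161-100378220 (A_52_P196476) and chr15:100395330-100395389 (A_52_P254298) on the minus strand of assembly mm7, as the files give them, spread over the locus. Which exons or transcript ends each of them reads was not analysed here, as no annotation of that assembly was used.

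Fth1, the ferritin subunit that oxidises iron for storage, was bright on all arrays, with its probe at chr19:9665120-9665179 on the plus strand. Its level was 7.77 in HB1, 7.23 in HNG2, 8.60 in 9F, 8.50 in 10F and 8.41 in NPC. Both HPC arrays lay lowest, and iHPC exceeded HPC by 1.05 ± 0.27, or 2.07-fold (adjusted p = 0.121), which did not pass. Without HB1 or HNG2, in fits that leave out the gap between these lines, that difference was 1.32 and 0.79. iHPC and NPC differed by 0.14 ± 0.33 (adjusted p = 0.848), and HPC minus NPC was -0.91 ± 0.33 (adjusted p = 0.15). The latter was -1.18 without HB1 and -0.64 without HNG2. Fth1 has processed copies in the genome, and whether the probe tells them apart was not analysed here. The light chain, Ftl1, stood at 6.13 to 7.01 on the 5 arrays, highest in NPC, and passed no comparison (adjusted p = 0.267, 0.321 and 0.586).

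Hmox1, the inducible enzyme that opens the heme ring, responds to heme and oxidative stress, and its probe lies at chr8:73642229-73642288 on the plus strand. It stood at 1.65 in HB1, 0.50 in HNG2, 1.89 in 9F, 1.84 in 10F and 2.17 in NPC. HNG2 stood apart as the lowest, and the remaining 4 arrays lay between 1.65 and 2.17. No comparison passed: iHPC minus NPC was -0.31 ± 0.57 (adjusted p = 0.803), iHPC minus HPC 0.79 ± 0.46 (adjusted p = 0.35) and HPC minus NPC -1.10 ± 0.57 (adjusted p = 0.252). The last 2 rest on which HPC line is used: without HB1 they were 1.37 and -1.67, and without HNG2 they were 0.22 and -0.53. Of its constitutive counterpart, Hmox2, no comparison passed either (adjusted p = 0.95, 0.12 and 0.127). Other genes that respond to oxidative stress through NRF2 were listed beside it, 7 of them tested. Nqo1, a quinone reductase, was called lower in iHPC than NPC (difference -2.71), higher in iHPC than HPC (5.49) and lower in HPC than NPC (-8.20), with 1 of 2 HPC arrays above background. Gclc and Txnrd1, of glutathione synthesis and thioredoxin reduction, were called higher in HPC than NPC by 4.01 and 1.39. The other listed NRF2 genes were not called in any comparison, as Hmox1 was not.

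The spread within a group was large for part of the members. HB1 exceeded HNG2 in 7 of 10 members and beyond 2-fold in 4: Tfr2 (6.59-fold), Hp (5.75-fold), Hpx (3.76-fold) and Hmox1 (2.21-fold). The median absolute difference of the members between these lines was 0.763, against 0.529 over all genes, of which 26.0% differed beyond 2-fold. Between 9F and 10F it was 0.196 against 0.149, only Tfr2 differed beyond 2-fold, on arrays where it was not above background, and 3.94% of all genes did. The number of calls depended on which array was left out. Without HB1 or HNG2, 7 members each were called between iHPC and NPC, with Tfrc, Hpx, Cp and Slc11a2 added, where 33% and 29.4% of all genes were called. Between iHPC and HPC it was 8 without HB1 and 7 without HNG2 (35.3% and 33.5% of all genes), and between HPC and NPC 8 and 6 (48.1% and 47.5%). Without 9F or 10F it was 0 members and 0 of all genes in each comparison, with 2 to 5 members and 2010 to 3895 of all genes at an unadjusted p under 0.05. Fits without HB1 or HNG2 take their spread from the gap between 9F and 10F alone. In all fits with 1 array left out, the array left alone in its group is assumed to vary like the others.

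Of 52 other listed genes of iron and heme handling, 50 had a probe and 45 were tested. Between iHPC and NPC 3 were called higher and 2 lower, between iHPC and HPC 2 higher and 1 lower, and between HPC and NPC 5 higher and 3 lower. Their median differences were -0.012, -0.039 and 0.23, against 0.026, 0.052 and -0.026 for all genes. The shares called, 5, 3 and 8 of 45, are to be read against 5.65%, 5.43% and 15.7% of all genes. Without 9F or 10F 0 of them were called, and 5 to 10 had an unadjusted p under 0.05.

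Of the 10 tested genes of the list of iron uptake and reductases, 3 were called higher and 2 lower in iHPC than NPC, 2 higher in iHPC than HPC, and 3 higher and 2 lower in HPC than NPC. Steap1 and Steap2, of a family of metalloreductases, were lowest in NPC: Steap1 stood at 3.45, 3.71, 3.88, 3.67 and -1.11 on HB1, HNG2, 9F, 10F and NPC. Steap1 was 4.88 higher in iHPC and 4.68 higher in HPC than in NPC (adjusted p = 0.0274 and 0.0112), and Steap2 2.29 and 2.36 higher (adjusted p = 0.0403 and 0.023). Lcn2, the siderophore-binding lipocalin of innate defence, stood at -5.24, -4.82, -0.33 and -0.78 on the HPC and iHPC arrays and was not above background in NPC. It was 4.47 higher in iHPC than HPC (adjusted p = 0.0206). Relative to NPC it was higher by at least 32.8-fold in iHPC (adjusted p = 0.0269) and at least 1.48-fold in HPC (adjusted p = 0.0345). The p-values against NPC test the difference in levels, with NPC at background, and not these bounds. Slc22a17, reported as a receptor for that lipocalin, was called lower than NPC in iHPC and HPC by 2.12 and 1.73 (differences -2.12 and -1.73). Cybrd1, a duodenal ferric reductase, stood at -6.30, -6.27, -2.10, -2.02 and -0.065, so that NPC was highest and HPC, where 1 of 2 arrays was above background, lowest. All of its comparisons were called: -1.99 in iHPC against NPC, 4.23 in iHPC against HPC and -6.22 in HPC against NPC.

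**Figure D4:**
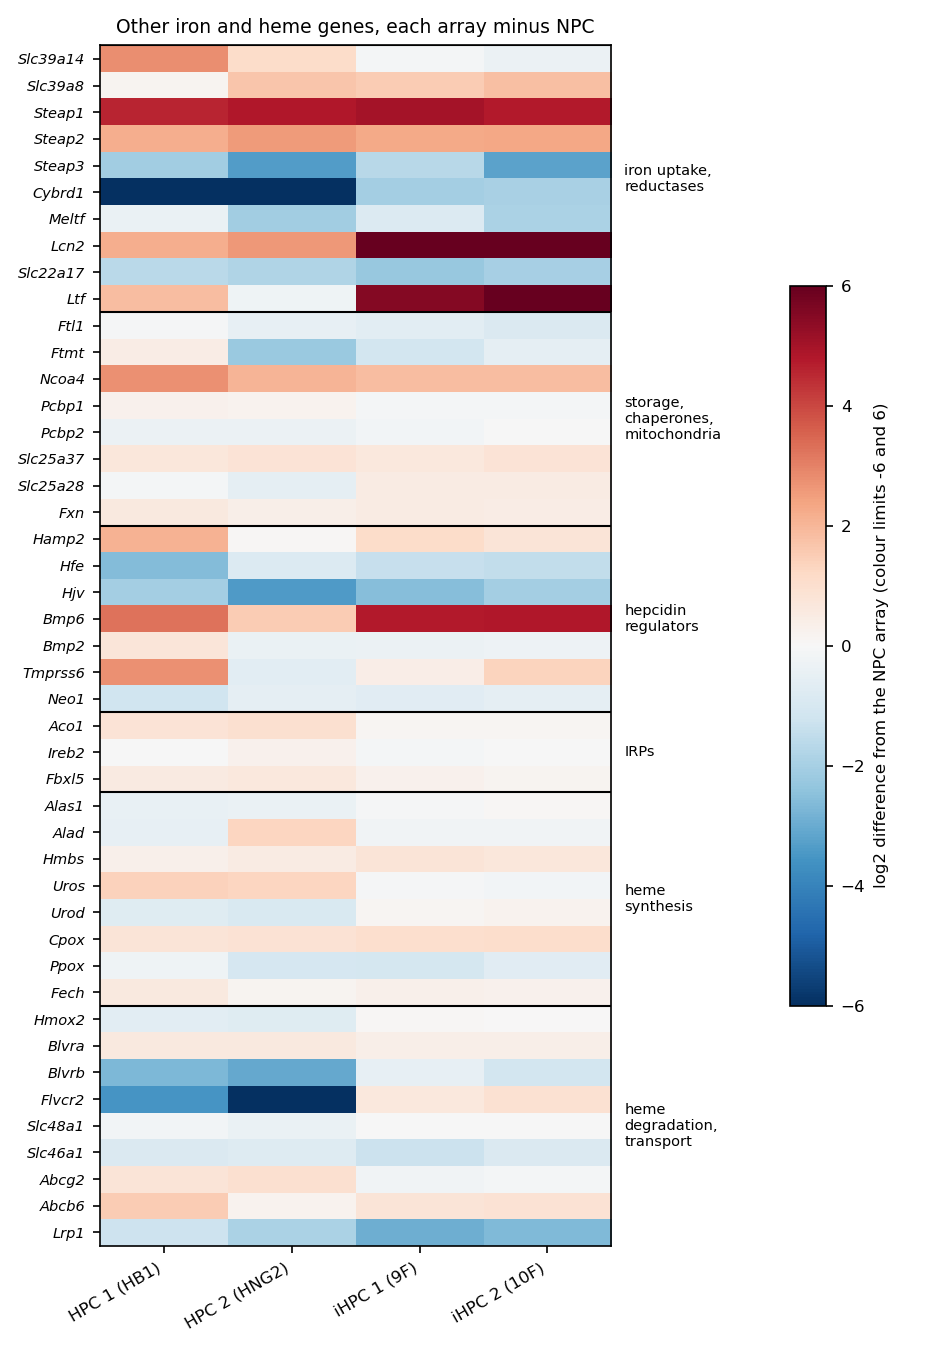
The 45 other listed iron and heme genes that were tested, in rows by role, on the HPC and iHPC arrays in columns. Colour is the log2 level of that array minus that of the single NPC array, red higher and blue lower, with the colour scale ending at -6 and 6. Steap1 is red on all 4 arrays, Lcn2 is strongest on both iHPC arrays, Cybrd1 is strongly blue on both HPC arrays (-6.30 and -6.27 against -0.065 in NPC), and values such as Lcn2 in NPC were not well above background.

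Of 8 heme synthesis genes tested, 1 was called: Uros, the uroporphyrinogen synthase, lower in iHPC than HPC (-1.45, adjusted p = 0.0473) and higher in HPC than NPC (1.33, adjusted p = 0.045). Alas1, the first enzyme of heme synthesis in liver, passed in no comparison (adjusted p = 0.986, 0.261 and 0.272), and its erythroid counterpart Alas2 was not above background on any array. Among genes of heme degradation and transport, 9 tested, Blvrb, a biliverdin reductase, was called lower in HPC than NPC (-2.88, adjusted p = 0.0301). Ncoa4, the receptor that sends ferritin to lysosomes, was called higher in HPC than NPC (2.39, adjusted p = 0.0412). The iron regulatory protein genes Aco1 and Ireb2 passed in no comparison, their adjusted p running from 0.0887 to 0.918. Of hepcidin and its regulators 0 of 7 tested were called by limma in any comparison, with 1 to 2 at an unadjusted p under 0.05. Hamp, which encodes hepcidin, was too dim on all groups to be tested, as were Heph, Steap4 and Cd163.

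For each member whose group means spanned over 2, the tested genes with the nearest pattern over the 5 arrays were found as the smallest Euclidean distance between levels centred per gene. For Trf these were Lgals4 (0.55) and Rbp4 (0.59), the latter the plasma carrier of retinol, which stood at 7.72, 6.60, 6.15, 6.41 and -1.27. For Hp they were Cfi (1.28), a complement inhibitor, and Fgb (2.15), the fibrinogen beta chain. Fgb stood at 4.35, 1.41, 8.07, 8.21 and -7.49, so that HNG2 was below HB1 and both iHPC arrays were highest, as for Hp. For Hpx they were Bmp6 (0.71), a ligand that drives hepcidin, and Ly6f (0.74). Cfi, Fgb, Bmp6 and Ly6f were not above background in NPC. For Cp they were Pkd2l1 (0.47) and Nat8f1 (0.51). Pkd2l1 was above background only on the iHPC arrays, 2 of 5, so its place rests on background values. For Tfr2 they were Rtn4rl1 (1.03) and Grb10 (1.22), the latter, like Tfr2 itself, not above background in iHPC, and for Slc40a1 Cc2d2a (0.15) and Flywch2 (0.26). With 5 arrays in 3 groups many genes lie near any pattern, and these distances are descriptions.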

How the data were processed

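Total RNA (0.25 µg per sample) from 5 mouse cell samples was labelled with Cy3 and hybridised to 1-colour Agilent arrays, per the labels' protocols. Each deposited value is the processed intensity of a spot, from which the background had been subtracted by Agilent's Feature Extraction software, version 10.7.3.1, per the file headers. The deposited series matrix repeats it on 100% of spots, and the headers record no scaling of 1 array to another.

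From these, log2 minus the array's 75th percentile was computed, control and outlier-flagged spots left out, and spots of 1 probe averaged. Of 41174 probes, 22940 were named by RefSeq accession (GRCm38.p6), 6658 by the file's symbol found there, and 11551 kept the file's name. A probe entered if all arrays of some group had it well above background, and the brightest probe stood for its gene, which left 19308 genes. Groups (2 HPC, 2 iHPC, 1 NPC) follow the labelled cell type and were compared in 1 fit of limma 3.58.1 (R 4.3.3; lmFit and eBayes, two-sided, Benjamini-Hochberg adjustment), which has 2 residual degrees of freedom. With 2 arrays against 2, the smallest p of an exact permutation test is 0.333. Scripts were tested on simulated data. The number of arrays limits the precision. Named were all members, the other listed iron and heme genes called in any comparison, Ftl1, Hamp, Aco1, Ireb2, Alas1 and Hmox2 whatever their values, and the 2 nearest patterns per member spanning over 2 log2 units. Heph, Steap4, Alas2 and Cd163 are named as not tested. The members, lists and rules were chosen with earlier results of these data known. Alternatives were other normalizations, background corrections, filters, probe rules and fits, scan day as a block, and leaving out each array. Plots were drawn with matplotlib 3.10.9.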

Additional observations from a re-analysis of the deposited data

How the results depend on the processing

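Trf and Hp were higher in iHPC and in HPC than in NPC under every setting in which they were tested. Hp was not tested with the filter on all arrays. Cp was higher in iHPC than in HPC under every setting run. The number called depends on the fit. Of the 10 members, 3 were called between iHPC and NPC, and 7 when only those groups were fitted or scan day was a block, where 39.8% and 35% of all genes were called. Both of these fits take their spread from the gap between 9F and 10F alone, as iHPC and NPC shared a scan day. Between iHPC and HPC 1 was called, and 3 with normexp (11% of all genes). Between HPC and NPC 2 were called, 4 with a trend in eBayes (21.5%) and 0 by limma with only those groups fitted, where 2 had an unadjusted p under 0.05. Leaving out 1 array gave 0 to 7, 0 to 8 and 0 to 8 members. Of the other iron and heme genes, 45 were tested, 50 with no filter, 35 with a filter on all arrays and 44 with only the groups with NPC. Between iHPC and NPC 5 were called: 8 with quantile normalization (8.05% of all genes), 2 with no filter (1.06%), 3 with the filter on all arrays (3.26%), 17 with only those groups (39.8%), 15 with scan day (35%), and 0 to 15 leaving out 1 array. Between iHPC and HPC 3 were called: 5 with median centring (6.82%), 9 with normexp (11%), 1 with the filter on all arrays (4.09%), 8 with a trend (7.77%), and 0 to 17 leaving out 1 array. Between HPC and NPC 8 were called: 3 with no filter (5.71%), 0 with only those groups (10 at an unadjusted p under 0.05), and 0 to 24 leaving out 1 array. The cause was not tested.

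Slc11a2 turned from 1.06 to -0.18 between iHPC and HPC with its probes averaged, and ran from -0.073 (without HNG2) to 0.28 between HPC and NPC when 1 array was left out, against 0.10 with all. Median centring moved the median of all genes to -0.19 between iHPC and HPC and to 0.26 between HPC and NPC, and normexp to 0.18 and -0.19. Calls over all genes were then 690 higher and 626 lower in iHPC against HPC with median centring, against 685 and 363, and 1761 and 1496 in HPC against NPC, against 1290 and 1734. With normexp they were 1392 and 729, and 1817 and 2930. No paired analysis was possible because each array is of its own line or population, with no pairs across groups. Slide as a random block could not be fitted. Genes dim in a group have only bounds, which limits Hp, Tfr2 and Lcn2. For Hp and Tfr2 the normexp differences were smaller than the bounds, which hold only for the background subtraction of the deposited values. Differences of Cybrd1 and Nqo1 from HPC rest on 1 of 2 HPC arrays above background.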
